A study of Mus musculus with 12 samples.

Results

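The oxidative phosphorylation system of the mitochondrial inner membrane is described here through its nuclear-encoded subunits, as measured by RNA-seq around an intracerebral hemorrhage (ICH) in young and aged mice. Members were the genes whose symbols begin with Ndufa, Ndufb, Ndufc, Ndufs or Ndufv and a digit, with Cox4 to Cox8, with Uqcr or with Atp5, whose symbol does not mark a pseudogene and whose mean count over the 12 samples was 10 or more. Of 93 matching gene entries, 8 carried a pseudogene symbol and 6 had too few counts, which left 79 members of 54833 genes in the table. Complex I had 37 members, complex III 8, complex IV 17 (with Ndufa4 and Ndufa4l2, now counted to it) and complex V 17. All 79 members passed the filter on low counts and were tested.

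The samples fell into 4 groups of 3, sham or ICH at a young or an aged age. All mice were male and C57BL/6, aged 8 to 10 weeks in the young groups and 20 to 22 months in the aged groups, and ICH was made by injecting type IV collagenase into the caudate putamen. Total RNA came from perihematomal tissue of the injected side 24 h after surgery, or from the matching tissue of sham-operated mice. Each sample pooled the tissue of 2 to 3 mice, so the *P* values measure the spread between pools.

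Complex I (NADH dehydrogenase), complex III (cytochrome bc1) and complex IV (cytochrome c oxidase) pass electrons from NADH to oxygen and pump protons. Complex V (ATP synthase) uses the proton gradient to make ATP. A few subunits are encoded by mitochondrial DNA, and the rest, described here, are nuclear genes whose products are imported and assembled. Neurons rely heavily on this pathway. Nuclear respiratory factors, ETS-family factors such as GABPA and the factor YY1 are known regulators of many of its genes.

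Depth was 28410896 to 37785160 counts per sample, of which the members took 0.609% to 0.727%. The 9 markers of striatal projection neurons used (among them Drd1, Drd2 and Ppp1r1b) were present in every sample, with a summed FPKM of 360.3 to 694 in the sham samples and 97.5 to 526 in the ICH samples. The libraries were not alike in what else they held. Choroid plexus markers reached a summed FPKM of 3551 in young ICH replicate 3, 1360 in aged ICH replicate 1 and 1716 in aged ICH replicate 2, against 39.6 to 436 in the other 9 samples. In bulk tissue, fewer cells of a type and less RNA per cell cannot be told apart.

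The letters in front of these genes give a first view of what members share beyond their names. RefSeq promoter windows of GRCm38.p6, each 300 bases long from 250 before the transcription start to 50 after it, were found for 63 of the 79 members in 68 windows. The NRF1 motif GCGCATGCG, searched on both strands, stood in 8 of the 68 windows (11.8%) against 1.75% of all 32851 windows. The YY1 motif AAGATGGCG stood in 7 windows (10.3%) against 1.4%, and the ETS motif CCGGAAG in 14 windows (20.6%) against 8.86%. The short hypoxia elements, common in all promoters, were found as ACGTG in 25% of the members' windows against 19.6% and GCGTG in 51.5% against 32.4%. Motif letters are a description of the window and do not show binding. Stretches of 30 bases follow for those members with an NRF1 or YY1 match that passed an unadjusted *P* under 0.05 in a comparison given later. Each is on the gene's own strand, with the motif in capitals. Where the capitals run to 10 letters, the motif was read on both strands and the matches overlap.
Ndufa8, chr2:36049328-36049357, NRF1 motif on the opposite strand, starting 9 bases before the transcription start: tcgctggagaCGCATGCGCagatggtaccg
Ndufa11, chr17:56717692-56717721, NRF1 motif 60 bases before the start: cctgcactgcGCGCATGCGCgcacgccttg
Uqcr11, chr10:80406807-80406836, NRF1 motif on the opposite strand, 5 bases before the start: atcgccttcaCGCATGCGCtatacgtctgc
Uqcrc1, chr9:108936668-108936697, NRF1 motif at base 31 of the transcript: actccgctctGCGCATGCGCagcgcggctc
Cox6a1, chr5:115349101-115349130, NRF1 motif 162 bases before the start: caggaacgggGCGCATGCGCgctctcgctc
Atp5g2, chr15:102671070-102671099, NRF1 motif 42 bases before the start: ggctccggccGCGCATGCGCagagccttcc
Atp5k, chr5:108434430-108434459, NRF1 motif 50 bases before the start: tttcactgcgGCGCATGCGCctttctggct
Ndufa9, chr6:126849096-126849125, YY1 motif at base 30 of the transcript: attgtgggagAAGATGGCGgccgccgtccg
Ndufs7, chr10:80249463-80249492, YY1 motif at base 25 of the transcript: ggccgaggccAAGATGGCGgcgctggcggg
Ndufs6, chr13:73328433-73328462, YY1 motif at base 34 of the transcript: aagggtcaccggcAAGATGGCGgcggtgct

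In mean FPKM over the 12 samples, which divides counts by the exonic length of the gene, members spanned from 1.25 (Cox6b2) to 351 (Cox8a). That length comes from the annotated exons and was not compared with the transcripts expressed. Orders and medians of FPKM therefore also depend on the annotation. Cox8a, a small subunit of complex IV, was the highest in every group, with 306 to 390 FPKM over the 12 samples. It was followed by Cox6a1 (266 FPKM), the F1 catalytic subunits Atp5b (218 FPKM) and Atp5a1 (210 FPKM), Cox4i1 (172 FPKM), Cox6b1 (138 FPKM) and Cox7c (84.7 FPKM). These 7 genes held the first 7 places in the same order in all 4 groups. The FPKM ranges of Atp5b (197 to 239) and Atp5a1 (190 to 235) overlapped.

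Median levels differed between complexes. Complex IV members had a median of 67.5 FPKM, complex III of 50.8, complex V of 31.3 and complex I 29.7. Within complex I the highest member was the accessory subunit Ndufa8 (67.1 FPKM), and in complex III the small subunit Uqcr10 (76.8 FPKM) was the highest and Uqcrq (32.6 FPKM) the lowest. Atp5l, a membrane subunit of ATP synthase, was the lowest of complex V at 6.79 FPKM, with a mean count of 1403 and an exonic length of 6443 bases. By contrast, Atp5k had 31.3 FPKM at a mean count of 620 and 616 bases. The lowest members in all were the alternative isoforms Cox6b2, Cox7a1 (1.5 FPKM), Cox4i2 (1.91 FPKM) and Ndufa4l2 (2.20 FPKM), and the gene copies Ndufb4c (1.43 FPKM) and Ndufs6b (2.25 FPKM), both annotated as processed pseudogenes.

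**Figure D1:**
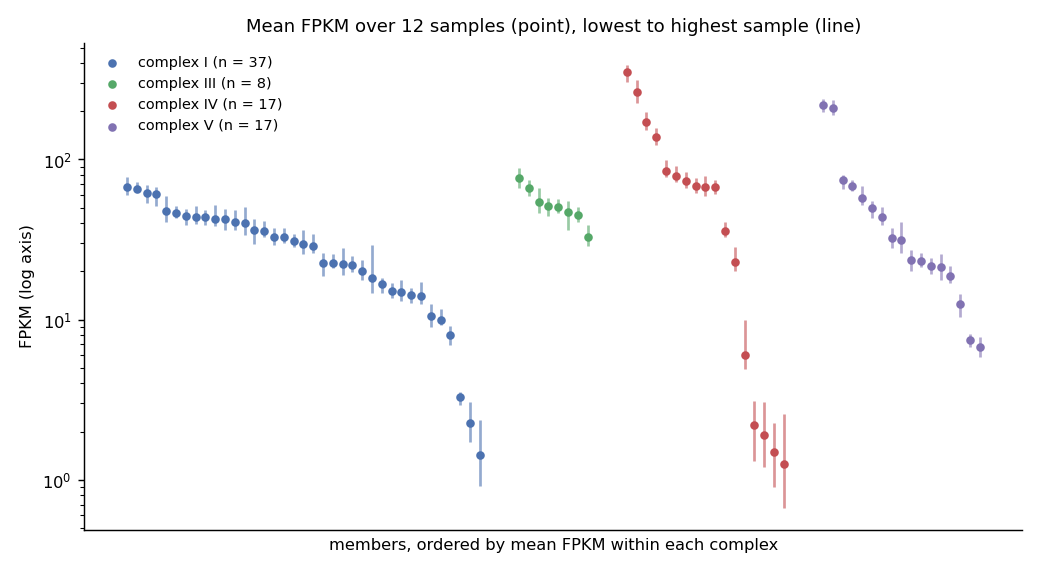
FPKM (log axis) of the 79 members, ordered within each complex, with the mean over 12 samples as a point and a line from the lowest to the highest sample. Cox8a stands highest at 351 FPKM, and the members under 3 FPKM are isoforms of complex IV and the gene copies of complex I.

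The limit of 10 counts fell between Cox8b (mean count 9), left out, and Ndufb4c (17.8), kept. Cox8b, a muscle isoform of complex IV, had 2, 3 and 2 counts in young sham, 3, 2 and 51 in young ICH, 4, 4 and 2 in aged sham and 15, 17 and 3 in aged ICH. Its 3 higher libraries are those with the most choroid plexus marker RNA. Cox6c2 (7.33), Cox7b2 (5.67), Ndufa11b (0.750), Cox8c (0.0833) and a second Atp5o entry (0) were also left out, as was the expressed pseudogene-named Ndufb1-ps (mean count 648).

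The comparison of young ICH with young sham asks how the hemorrhage changed these genes in young brain. The main result was small. The median log2FC of the 79 members was -0.01 against 0.02 over all 21495 genes tested, and 44 members were below 0. Without young ICH replicate 2 the median was 0.04 and 27 were below 0, and without young ICH replicate 1 they were -0.09 and 58. At an adjusted *P* under 0.05 (edgeR quasi-likelihood test, Benjamini-Hochberg over all genes tested), 4 members were lower and none higher, while 9.23% of all genes were lower and 9.89% higher. At an unadjusted *P* under 0.05, 10 members were lower and 3 higher, against 15.9% and 17.3% of all genes. The share of members called was thus below that of all genes in each direction. The groups did not overlap for 6 members that were lower and 4 that were higher, against backgrounds of 16.5% and 18.5%.

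Uqcrc2, a core protein of complex III (chr7:120635176-120659524), had 140.6, 142.7 and 149.7 CPM in young sham and 130.1, 124.0 and 114.0 CPM in young ICH. Here and below, CPM are library-scaled counts (CPM, with TMM factors). Every young ICH sample was below every young sham sample, and replicate 3 was the lowest. The log2FC was -0.23 ± 0.06 (SE, n = 3 per group, edgeR adjusted *P* = 0.0164). Ndufa9, an accessory subunit of complex I with the YY1 motif shown above (chr6:126821721-126849136), had 78.1, 78.2 and 81.4 CPM in young sham and 72.6, 67.3 and 61.3 CPM in young ICH. The groups again did not overlap, and the log2FC was -0.24 ± 0.06 (edgeR adjusted *P* = 0.0208). Both calls were lost when young sham replicate 2, young sham replicate 3 or young ICH replicate 3 was left out, with log2FC from -0.28 to -0.18 for Uqcrc2 and from -0.30 to -0.18 for Ndufa9 over the 12 samples left out in turn.

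Atp5a1, the alpha subunit of the F1 head of ATP synthase, had 770.0, 730.7 and 755.2 CPM in young sham. In young ICH it had 685.1, 613.0 and 585.9 CPM. The ICH samples lay below the sham samples, with a log2FC of -0.26 ± 0.07 (edgeR adjusted *P* = 0.0255), and the call was lost without any 1 young sham sample, young ICH replicate 2 or young ICH replicate 3. Its partner Atp5b, the beta subunit that carries the catalytic sites, had 1059, 979.3 and 1038 CPM in young sham and 999.3, 829.1 and 866.4 CPM in young ICH. Those groups overlapped, since young ICH replicate 1 was above young sham replicate 2 (log2FC -0.19, edgeR adjusted *P* = 0.116, unadjusted *P* = 0.0338).

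Ndufa12, an accessory subunit of the peripheral arm of complex I (chr10:94198720-94221443), was the member with the largest fall by log2FC, -0.52 ± 0.16 (edgeR adjusted *P* = 0.0451). Its values were 47.6, 36.4 and 29.3 CPM in young sham and 31.3, 22.7 and 25.2 CPM in young ICH. The young sham samples were spread widely and the groups overlapped. The call was kept in 2 of the 12 fits that left out 1 sample, with log2FC from -0.67 to -0.31.

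The other members lower at an unadjusted *P* under 0.05 were Ndufs1, the largest iron-sulfur subunit of complex I (log2FC -0.22), Ndufs7, an iron-sulfur subunit next to the quinone site (-0.24), Uqcrc1, the partner of Uqcrc2 (-0.20), and Atp5c1 (-0.16) and Atp5d (-0.18), which form the central stalk of ATP synthase. The 3 higher at that level were all of complex IV: Cox4i2 (0.63), Ndufa4l2 (0.50) and Cox6a1 (0.16).

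These calls depended on the scale and on single libraries. On log2(FPKM + 1) with limma, which does not use TMM factors, 4 members also passed, but all 4 were higher (Atp5g2, Cox4i2, Cox6a1 and Ndufa4l2) and none lower. The members' median was then 0.07 against 0.06 over all genes. Without young ICH replicate 3, the library with the most choroid plexus RNA, 0 members passed in edgeR, and without young sham replicate 2 also 0. Without young ICH replicate 1, in which the members' mean log2 CPM was the highest of the 3 (5.6 against 5.32 and 5.46), 14 members passed, all lower. The share of all genes passing in these other fits is not given here, so their counts cannot be set against it.

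**Figure D2:**
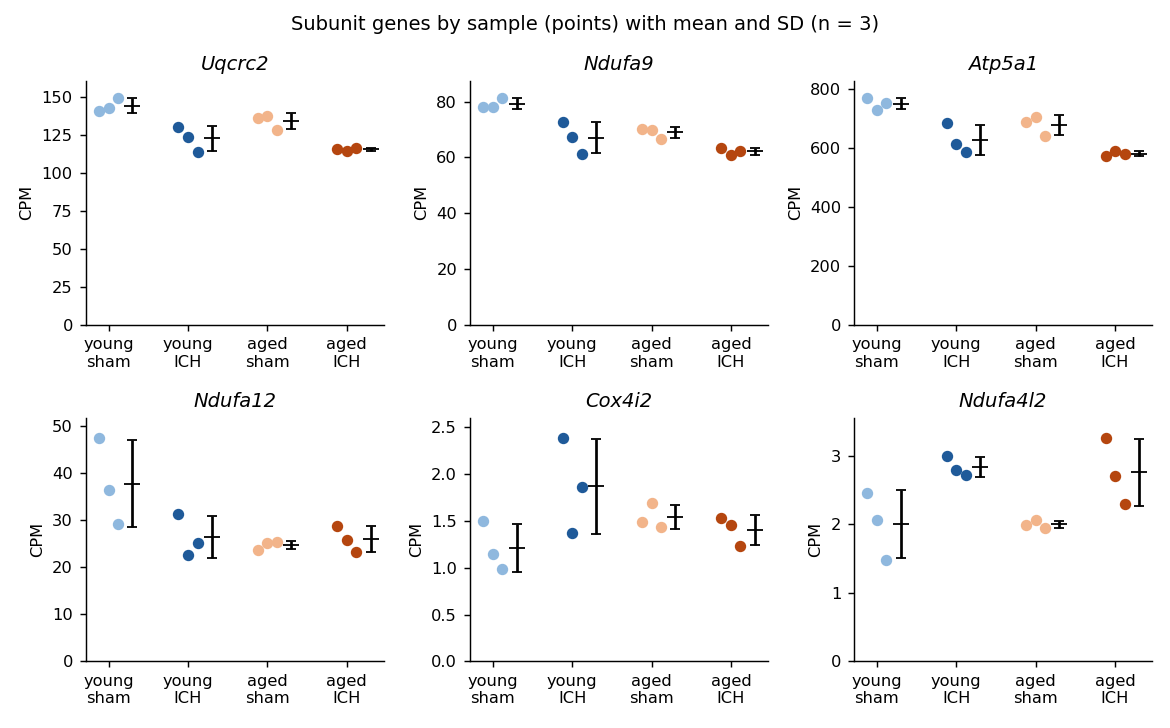
TMM-scaled CPM in each of the 12 samples for 6 members, with the group mean ± SD beside the points. Uqcrc2, Ndufa9 and Atp5a1 are lower in both ICH groups than in the sham group of the same age, Ndufa12 is spread from 29.3 to 47.6 CPM in young sham, and Cox4i2 and Ndufa4l2 are low throughout.

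In aged mice, ICH was compared with aged sham. The members' median log2FC was 0.04 against 0.00 over all genes, and 34 of 79 were below 0. Only Uqcrc2 passed the adjusted threshold, lower in aged ICH, against 6.15% of all genes lower and 7% higher. At an unadjusted *P* under 0.05, 7 members were lower and 7 higher, against 14.3% and 14.6% of all genes. The groups did not overlap for 14 members that were lower (background 17.3%) and 7 that were higher (background 17.8%).

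Uqcrc2 had 136.3, 137.7 and 128.5 CPM in aged sham and 115.4, 114.4 and 116.7 CPM in aged ICH. The aged ICH samples lay close together and under all aged sham samples (log2FC -0.22 ± 0.06, edgeR adjusted *P* = 0.0307). The call was lost without aged sham replicate 1 or 2 or any 1 aged ICH sample, with log2FC from -0.25 to -0.20. Atp5a1 had 688.6, 707.5 and 641.6 CPM in aged sham and 574.8, 591.8 and 579.8 CPM in aged ICH. These groups did not overlap either, but the log2FC of -0.22 did not pass (edgeR adjusted *P* = 0.0583). Ndufs1 behaved in the same way, with 146.6, 146.6 and 138.7 CPM in aged sham against 121.2, 122.6 and 124.3 CPM in aged ICH (log2FC -0.23, edgeR adjusted *P* = 0.0623).

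The remaining members lower at an unadjusted *P* under 0.05 in aged ICH were Atp5o, the oligomycin-sensitivity subunit of the stator (log2FC -0.20), Ndufa9 (-0.15), Atp5b (-0.18) and Uqcrc1 (-0.15). Those higher were small accessory subunits and isoforms: Ndufa3 (0.25) and Ndufa2 (0.26) of complex I, Uqcr11 (0.23) of complex III, Cox8a (0.14) and Ndufa4l2 (0.47) of complex IV, and Atp5k (0.27) and Atp5g2 (0.18) of complex V. Cox8a had 170.8, 184.5 and 183.9 CPM in aged sham and 205.3, 199.8 and 189.8 CPM in aged ICH, which did not overlap. On log2(FPKM + 1) with limma, 2 members passed, Atp5g2 and Ndufa3, both higher, and none was lower. The median over all genes on that scale was 0.04, against 0.00 in the main fit. The share of all genes passing there is not given, so this count cannot be set against it.

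**Figure D3:**
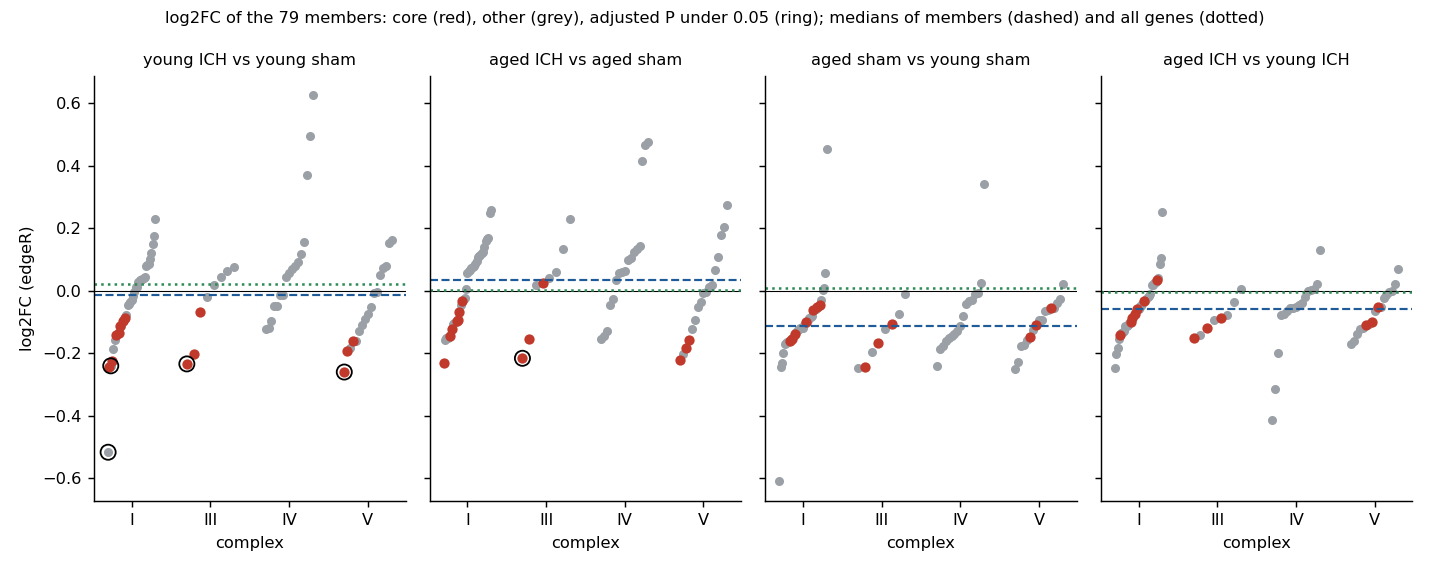
log2FC of each of the 79 members (points) by complex, with core subunits in red, members past an edgeR adjusted *P* of 0.05 ringed, and the median of members (dashed) and of all genes (dotted) as lines. In aged sham vs. young sham 72 of 79 points are below 0 and the members' median is -0.11 against 0.01 for all genes.

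The core and catalytic subunits, which bind the flavin, iron-sulfur clusters and nucleotides or form the body of complex III, had lower log2FC after ICH than the rest. These 13 genes were the 7 core subunits of complex I, Uqcrfs1 (the Rieske iron-sulfur protein), Uqcrc1, Uqcrc2, Atp5a1, Atp5b and Atp5c1. In young ICH vs. young sham their median log2FC was -0.16 and 13 of 13 were below 0, while the other 66 members had a median of 0.02 with 31 below 0. In aged ICH vs. aged sham the core median was -0.15 with 12 of 13 below 0, the exception being Uqcrfs1 (0.02), while the others had a median of 0.06 with 22 of 66 below 0. The groups did not overlap for 3 of the 13 core genes in young mice (16.5% of all genes lower) and for 8 of the 13 in aged mice (17.3%), all lower after ICH. The number of core genes below 0 was 12 to 13 in young and 11 to 13 in aged mice when each sample was left out in turn. On log2(FPKM + 1) it was 12 of 13 in young and 10 of 13 in aged mice, with medians of -0.08 and -0.07. Of the 13, 2 passed the adjusted threshold as lower in young mice (9.23% of all genes) and 1 in aged mice (6.15%).

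By part, the same division was seen in complexes I and V. The 7 core subunits of complex I had a median of -0.13 in young and -0.10 in aged mice, and its 28 accessory subunits 0.00 and 0.07. In complex III, Uqcrc1 and Uqcrc2 had medians of -0.22 and -0.19 and the 5 accessory subunits 0.04 and 0.06, with Uqcrfs1 at -0.07 and 0.02. In complex V the 5 subunits of the F1 head had medians of -0.18 and -0.16, of which Atp5e, the smallest, was above 0 in both (0.16 and 0.20). The 8 stalk and membrane subunits had medians of -0.01 and 0.02. The 11 main isoforms of complex IV, none of them counted as core because its catalytic subunits are mitochondrially encoded, had medians of -0.01 and 0.06.

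Core subunits also had the greater exonic length per gene, with a median of 2313 bases against 1227 for the other members. The length of the transcripts expressed was not measured. Over the 72 members with a mean count of 300 or more, Spearman's rho between exonic length and log2FC was -0.46 in young and -0.57 in aged mice after ICH, and 0.12 for aged sham vs. young sham. The points share libraries and scaling factors, so these values are descriptions. Other genes also had lower log2FC at greater length. In young ICH vs. young sham, other genes up to 1000 bases had a median log2FC of 0.16 and those over 2500 bases -0.06, while members had 0.04 (18 genes) and -0.11 (18 genes). In aged mice the corresponding values were 0.19 and -0.06 for other genes, and 0.08 and -0.11 for members. Members over 1000 and up to 2500 bases had -0.04 in young mice (other genes 0.05) and 0.04 in aged mice (other genes 0.04). The part of exonic length in the difference between core and other subunits was not tested.

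**Figure D4:**
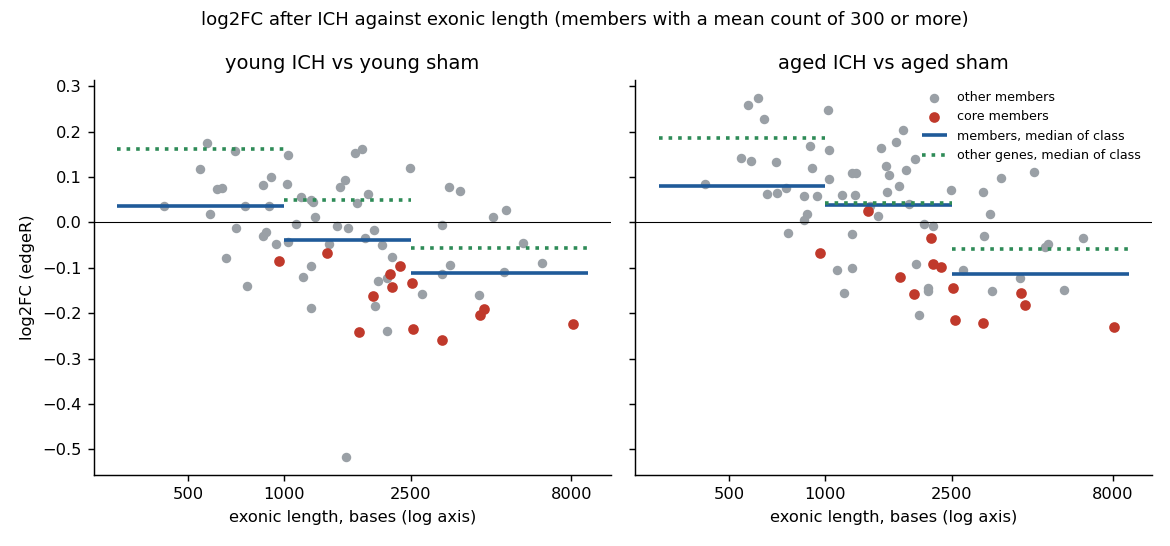
log2FC after ICH against exonic length in bases (log axis) for the 72 members with a mean count of 300 or more, in young (left) and aged mice (right), with core subunits in red and class medians of members (solid) and other genes (dotted). Members of greater exonic length lie lower in both, with Spearman's rho of -0.46 and -0.57.

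Aging alone was read from aged sham vs. young sham. Here 72 of 79 members were below 0, with a median log2FC of -0.11 against 0.01 over all genes, of which 48.3% were below 0. The quartiles of the members were -0.16 and -0.06. No member passed the adjusted threshold in edgeR, where 0.014% of all genes were lower and 0.0884% higher. At an unadjusted *P* under 0.05, 9 members were lower and none higher, against 5.79% and 6.56% of all genes. DESeq2 called 1 member (Ndufa12) and limma none. The groups did not overlap for 29 members that were lower and for 1 that was higher, against 11.2% and 9.81% of all genes.

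The members' mean log2 CPM was 5.50, 5.43 and 5.51 in young sham and 5.34, 5.44 and 5.34 in aged sham. Aged sham replicate 2 was therefore within the young range, and the other aged sham samples were below it. When each sample was left out in turn, the median log2FC stayed between -0.15 and -0.08, and on log2(FPKM + 1) it was -0.07 against 0.03 over all genes. By complex, the medians were -0.12 in complex I, -0.14 in complex III, -0.11 in complex IV and -0.09 in complex V, and by role they were -0.11 in the core (13 of 13 below 0) and -0.12 in the other subunits (59 of 66 below 0). By exonic length, members had medians of -0.14, -0.12 and -0.10 from the shortest to the longest class, and other genes -0.03, -0.05 and -0.02.

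Ndufa12 had the largest difference, a log2FC of -0.61 ± 0.16 (unadjusted *P* = 0.00291, edgeR adjusted *P* = 0.202). Its 23.7, 25.3 and 25.3 CPM in aged sham were below all young sham samples, and it was the 1 member past the study's criteria of a fold change over 1.5 or under 0.67 with an unadjusted *P* under 0.05, which 3.72% of all genes met. Ndufa9 had 70.3, 69.9 and 66.7 CPM in aged sham, under the young sham range (log2FC -0.20). Atp5d had 89.5, 100.2 and 85.8 CPM in aged sham, under the 109.1 to 109.7 CPM of young sham (-0.25). The other members at an unadjusted *P* under 0.05 were Uqcr11 (-0.25), Uqcrfs1 (-0.24), Ndufs6 (-0.24), Uqcrc1 (-0.17), Ndufa8 (-0.17) and Cox7a2, the main isoform of its subunit (-0.15). Adjusted *P* values of these 9 members lay between 0.202 and 0.387 in edgeR. Young sham samples are the reference both here and for young ICH. Ndufa12, Ndufa9, Atp5d and Uqcrc1 were lower in both at an unadjusted *P* under 0.05, which rests on the same 3 samples.

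Between the ICH groups, aged ICH vs. young ICH, the median log2FC was -0.06 against 0.00 over all genes and 63 of 79 members were below 0. This rested on single libraries: without young ICH replicate 1 the median was 0.01 with 34 below 0, and without aged ICH replicate 3 it was -0.02 with 45 below 0. No member passed the adjusted threshold in edgeR, DESeq2 or limma, where by edgeR 0.0186% of all genes were lower and 0.0372% higher. Ndufa11, an accessory subunit of complex I, was the 1 member at an unadjusted *P* under 0.05, with 28.2, 23.7 and 27.0 CPM in young ICH and 20.6, 26.1 and 19.9 CPM in aged ICH (log2FC -0.25, edgeR adjusted *P* = 0.491). No member was higher at that level, and the backgrounds were 4.86% lower and 4.68% higher. The ICH groups overlapped for Ndufa11.

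Whether the response to ICH differed with age was tested by the interaction, the aged log2FC minus the young one. Its median was 0.04 against -0.01 over all genes, with 20 of 79 members below 0. The direction turned without young ICH replicate 2 (median -0.02, 46 below 0), and without young ICH replicate 1 the median was 0.11 with 7 below 0. No member passed the adjusted threshold in edgeR, DESeq2 or limma. In edgeR no gene of the 21495 tested passed it either, with 0 lower and 0 higher, so the absence of calls is not particular to the members. At an unadjusted *P* under 0.05, 1 member was lower (background 1.91%) and 1 higher (background 0.907%). Cox4i2 was lower by -0.75 ± 0.33 (unadjusted *P* = 0.0408, edgeR adjusted *P* = 1). Ndufa12 was higher by 0.58 ± 0.23 (unadjusted *P* = 0.0263, edgeR adjusted *P* = 1), its aged values being 23.7 to 25.3 CPM in sham and 23.3 to 28.8 CPM in ICH.

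Complex IV is the complex with most alternative isoforms, some known from muscle, testis or low oxygen. Cox4i2, which replaces Cox4i1 and is known from hypoxia-responsive cells such as pericytes (chr2:152754173-152765037), had 1.49, 1.14 and 0.990 CPM in young sham. It had 2.38, 1.37 and 1.86 CPM in young ICH, of which replicate 2 was within the young sham range. The log2FC was 0.63 ± 0.23 (unadjusted *P* under 0.05, edgeR adjusted *P* = 0.0801), and Cox4i2 was the 1 member past the study's criteria in young mice, which 12.2% of all genes met. In aged mice it had 1.49, 1.69 and 1.44 CPM in sham and 1.53, 1.46 and 1.23 CPM in ICH, with overlapping groups and a log2FC of -0.13.

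As a share of the summed FPKM of Cox4i1 and Cox4i2, Cox4i2 made up 0.907% ± 0.183 in young sham, 1.30% ± 0.254 in young ICH, 1.18% ± 0.0243 in aged sham and 0.988% ± 0.0800 in aged ICH (SD, n = 3). Pericyte and smooth muscle markers moved beside it, with a median log2FC over 8 genes of 0.39 in young ICH vs. young sham (8 of 8 above 0) and -0.03 in aged ICH vs. aged sham (4 of 8 above 0). Pdgfrb passed the adjusted threshold as higher in both. Their summed FPKM was 40.9 to 54.7 in young sham, 56.5 to 67.3 in young ICH, 48.1 to 59.4 in aged sham and 52.0 to 57.4 in aged ICH. Their part in the Cox4i2 values was not tested.

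Ndufa4l2, a hypoxia-inducible relative of the complex IV subunit Ndufa4 (chr10:127514967-127517154), had 2.46, 2.06 and 1.49 CPM in young sham and 2.99, 2.80 and 2.71 CPM in young ICH. In aged mice it had 1.99, 2.06 and 1.95 CPM in sham and 3.26, 2.71 and 2.29 CPM in ICH. The ICH samples were above the sham samples of the same age in both, with log2FC of 0.50 ± 0.19 and 0.47 (edgeR adjusted *P* = 0.0962 and 0.138). Its share of the summed FPKM with Ndufa4 was 2.16% ± 0.575 in young sham and 3.12% ± 0.241 in young ICH, and 2.35% ± 0.0548 in aged sham and 3.13% ± 0.414 in aged ICH. The pericyte medians given above were 0.39 in young and -0.03 in aged mice, and their part in the Ndufa4l2 values was not tested.

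The remaining alternative isoforms varied more between samples in young mice. Cox6a2, a heart and muscle isoform, had 3.51, 4.41 and 5.08 CPM in young sham and 6.70, 3.43 and 3.56 CPM in young ICH, in which replicate 1 was above the sham range, replicate 2 below it and replicate 3 within it. Its share of Cox6a1 plus Cox6a2 was 1.99% to 2.82% in young sham and 1.81% to 3.32% in young ICH, and it was 2.10% to 2.22% in aged sham and 1.83% to 1.97% in aged ICH, which did not overlap. Cox6b2, a testis isoform, had 1.34, 0.732 and 2.74 CPM in young ICH. Its shares ranged from 0.517% to 1.70%. Cox6b2 counts were 87 in young ICH replicate 3, 62 in aged ICH replicate 1 and 58 in aged ICH replicate 2, against 22 to 51 in the others. Those are the libraries with the most choroid plexus marker RNA, whose part in the Cox6b2 values was not tested. Cox7a1, another muscle isoform, made up 1.73% to 2.58% of Cox7a1 plus Cox7a2 in young sham and 1.46% to 3.07% in young ICH. In aged mice it made up 1.47% to 2.43% in sham and 2.48% to 2.52% in ICH, without overlap, at a mean count of 25.8 over the 12 samples. Skeletal and cardiac muscle markers were low, with a summed FPKM of 4.79 to 10.3 over 8 genes.

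The c ring of ATP synthase is built from 1 mature protein made by 3 genes. Atp5g3 gave the largest part of their summed FPKM, 59.1% to 63.5% over the samples, and Atp5g1 11.8% to 14.7%. By counts, not divided by exonic length, Atp5g1 made up 24.7% to 29.3% and Atp5g2 14.9% to 20.6%. The order of Atp5g1 (exonic length 4912 bases) and Atp5g2 (1675 bases) thus depended on the unit. Atp5g2, which carries the NRF1 motif shown above, had an FPKM share of 23.0% ± 0.844 in young sham. In young ICH the share was 26.1% ± 1.19, with no overlap. In aged mice Atp5g2 made up 24.8% ± 0.600 of the FPKM in sham and 27.4% ± 1.4 in ICH, again without overlap. In CPM it had 34.6, 40.2 and 35.6 in aged sham and 41.0, 42.1 and 41.7 in aged ICH (log2FC 0.18, edgeR adjusted *P* = 0.129).

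**Figure D5:**
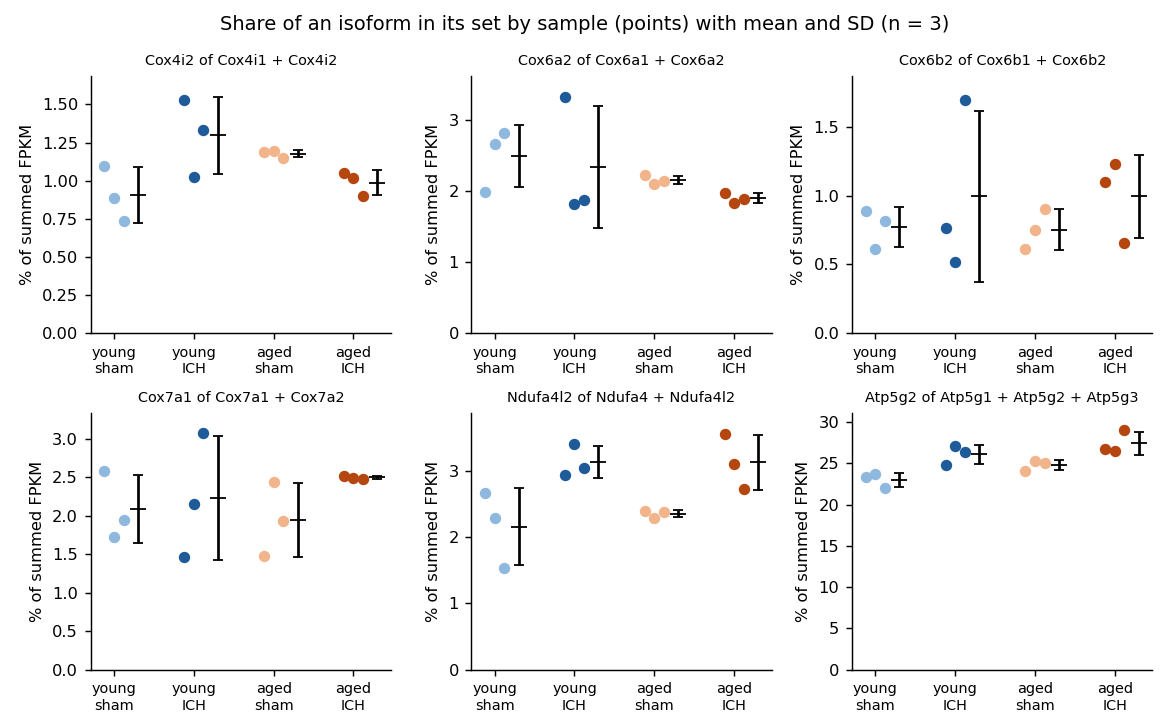
Share of each isoform in the summed FPKM of its set (%) in each of the 12 samples, by group, with the mean ± SD beside the points. Shares of Ndufa4l2 and Atp5g2 are higher in both ICH groups than in the sham groups of the same age, and the mean share of Cox4i2 is 1.30% in young ICH and 0.907% in young sham.

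The genes that work with these complexes are given for comparison. Complex II, which is nuclear in full, had a median log2FC of -0.18 in young and -0.15 in aged mice after ICH, with 1 of 4 genes lower at the adjusted threshold in each. That gene was Sdha, the flavoprotein subunit (-0.24, edgeR adjusted *P* = 0.0133, and -0.20, 0.039). Of 16 genes of the TCA cycle and pyruvate dehydrogenase, 8 were lower and 1 higher at the adjusted threshold in young mice (median -0.20, 15 below 0) and 5 lower in aged mice (median -0.18, 14 below 0). Pdha1, the regulated subunit of pyruvate dehydrogenase, fell in both (-0.27, edgeR adjusted *P* = 0.00424, and -0.23, 0.0137), as did Idh3a (-0.32 and -0.23). The gene that rose in young mice was Suclg2 (0.49). In aged sham vs. young sham 15 of these 16 genes were below 0, with a median of -0.12 and none passing the adjusted threshold.

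Among 12 regulators, Ppargc1a, a coactivator of mitochondrial biogenesis, was lower in young (-0.34, edgeR adjusted *P* = 0.0195) and aged mice (-0.36, 0.0201) after ICH, as was the nuclear receptor Esrrg (-0.47, 0.0382, and -0.61, 0.0188). The other 10 did not pass. Of 38 assembly factors tested, 2 were lower in young mice (Ttc19, -0.38, and Ndufaf5, -0.33) and 1 in aged mice (Cox10, -0.31), with medians of -0.07 and -0.06. Over all genes, 9.23% were lower at the adjusted threshold in young and 6.15% in aged mice after ICH. The share of assembly factors called lower was below these values. Among 14 other mitochondrial genes, the import receptor Tomm20 (-0.28) and the outer membrane channel Vdac1 (-0.24) were lower in young mice and none passed in aged mice. Cycs, which encodes cytochrome c, had -0.21 and -0.24, neither past the adjusted threshold. Cyc1 encodes cytochrome c1, a catalytic subunit of complex III that the symbol rule does not take in. It had -0.18 and -0.09, also not past the threshold. Ndufab1, the acyl carrier of complex I, had 0.06 and -0.01.

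The 13 mitochondrially encoded subunits had a median log2FC of 0.33 in young ICH vs. young sham, with 12 of 13 above 0. There, mt-Nd6, mt-Nd1 and mt-Atp6 were higher and mt-Nd4l lower at the adjusted threshold, against 9.89% and 9.23% of all genes. In aged ICH vs. aged sham the median was 0.20 with 13 of 13 above 0 and none passing in edgeR.

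Other cell types moved beside these comparisons. General neuronal markers had a median log2FC of -0.22 in young (9 of 10 below 0) and -0.18 in aged mice (10 of 10 below 0) after ICH, and -0.13 in aged sham vs. young sham (9 of 10 below 0). Their summed FPKM was 1284 to 1486 in young sham, 1013 to 1294 in young ICH, 1246 to 1344 in aged sham and 1088 to 1206 in aged ICH. Striatal projection neuron markers had medians of -0.95 and -1.10 after ICH (9 of 9 below 0 in both) and 0.01 in aged sham vs. young sham. None of these 9 passed the adjusted threshold after ICH at either age. The groups did not overlap for 3 of them in young mice (16.5% of all genes lower) and 1 in aged mice (17.3%). Neutrophil markers had medians of 3.38 and 2.23 after ICH over 6 of 8 genes tested, and 2.01 in aged sham vs. young sham. Monocyte and macrophage markers had 1.33 and 1.11, endothelial markers 0.51 and 0.29, and red cell markers 2.39 and 0.17. Astrocyte medians were 0.25 and 0.03, microglial ones 0.01 and 0.00, and oligodendrocyte ones -0.03 and -0.56. The microglial markers were divided, with 4 of 8 below 0 at each age. Their log2FC ran from -0.80 to 0.21 in young and from -1.11 to 0.22 in aged mice. Astrocyte markers ran from -0.30 to 1.33 and from -0.51 to 1.13. In aged sham vs. young sham, where 72 of 79 members were below 0, red cell markers had a median of 1.58 (5 of 5 above 0), choroid plexus markers -1.66 (6 of 6 below 0), monocyte and macrophage markers 0.23 (8 of 8 above 0) and oligodendrocyte markers -0.21 (6 of 8 below 0). The part of these cell types in the members' values was not tested.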

How the data were processed

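The deposited table holds raw counts per gene and FPKM for 12 samples. The authors aligned reads with HISAT2 to GRCm38.p6 and counted them with featureCounts (Subread), and the sources used here do not give the strand setting. The deposited FPKM were counts scaled by exonic length and total count, from which whole-number exonic lengths were recovered (largest relative deviation 1.13e-06). Of the members, 38 overlap another annotated gene, among them Uqcrc2, Ndufa9, Atp5a1, Ndufs1 and Ndufa4l2.

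Counts were tested with edgeR 4.0.16 in R 4.3.3 (TMM, filterByExpr with a minimum count of 10, glmQLFit and glmQLFTest, two-sided, 12 samples in 1 fit of 4 groups), with Benjamini-Hochberg adjustment over 21495 genes. The code was tested on simulated data. TMM factors were 0.954 to 1.000 in sham and 1.007 to 1.041 in ICH samples. Alternatives were DESeq2 1.42.0, limma 3.58.1 on log2(FPKM + 1) and log2(FPKM + 0.1), other size factors, no filter, the 2 groups alone, a replicate block, a higher count limit for members and leaving out each sample. Members and lists were chosen with earlier results of these data known. Named are isoform sets, core subunits, the highest and lowest members of each complex, members past the study's criteria and up to 8 per direction with the smallest *P* under 0.05. Sequences are from RefSeq and gene positions from GENCODE. In the list of striatal projection neuron markers, 1 gene is not reported here and was left out of its values.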

Additional observations from a re-analysis of the deposited data

How the results depend on the processing

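All median log2FC of the members moved by less than the spread between replicates (SD 0.0888 in mean log2 CPM) under the alternatives tried. That spread is larger than the main median of every comparison except aged sham vs. young sham. For the other comparisons it therefore cannot show that a direction was kept. Leaving out each sample in turn gave medians of -0.09 to 0.04 for young ICH vs. young sham, 0.01 to 0.07 for aged ICH vs. aged sham, -0.15 to -0.08 for aged sham vs. young sham, -0.12 to 0.01 for aged ICH vs. young ICH and -0.02 to 0.11 for the interaction. The counts of members past the adjusted threshold were less stable. Shares of all genes at this threshold are given above for the main fit only, so counts under the alternatives cannot be set against them. For young ICH vs. young sham, 4 became 8 with DESeq2, 2 without the filter on low counts, 0 with the 2 groups alone (fewer samples), 1 by the study's criteria and 13 by unadjusted *P*. For aged ICH vs. aged sham, 1 became 3 with DESeq2, 0 without the filter, 2 with the 2 groups alone, 2 on either FPKM scale (both higher), 0 with the replicate block, 0 by the study's criteria and 14 by unadjusted *P*. For aged sham vs. young sham, 0 became 1 with DESeq2, 1 by the study's criteria and 9 by unadjusted *P*. For aged ICH vs. young ICH, 0 became 1 by unadjusted *P*. For the interaction, 0 became 2 by unadjusted *P* and 1 by the study's criteria, which 232 of all 21495 genes met as lower and 104 as higher. Leaving out each sample gave 0 to 14 in young ICH vs. young sham (2 without young sham replicate 1, 0 without replicate 2 and 1 without replicate 3, 14 and 0 without young ICH replicates 1 and 3), 0 to 3 in aged ICH vs. aged sham (0 without aged sham replicate 1 or 2 or any 1 aged ICH sample, 3 and 2 without young ICH replicates 1 and 3) and 0 in the other comparisons. Apart from the constructions named, the cause was not tested.

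Samples that share a replicate number did not deviate together (correlations from -0.45 to 0.23), so the numbers do not pair the samples. With the number as a block, 4 members passed in young ICH vs. young sham and 0 in the other comparisons. No member at an unadjusted *P* under 0.05 in a comparison changed sign there under an alternative, while core subunits closer to 0 did (Uqcrfs1 in aged ICH vs. aged sham among them).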
